A study of Mus musculus with 14 samples.

Results

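Oxygen-dependent and glycolytic genes were followed through chondrogenic differentiation in 35 of the 21887 protein-coding genes of the mouse annotation. The 35 were a list of named genes: the hypoxia-inducible factors and their oxygen sensors, genes induced by hypoxia, the enzymes of glycolysis, and transporters of glucose and lactate. All 35 were found in the RefSeq gene table, and a called peak was assigned to a gene when it overlapped the gene's span, extended by 1 kb on either side. By their known roles they were set in 4 classes: 15 glycolytic enzyme genes, 11 inducible hypoxia genes, 6 genes of oxygen sensing and of the hypoxia-inducible factors, and 3 transporter genes. Several glycolytic genes are themselves induced by hypoxia, so these classes overlap in biology.

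Hypoxia-inducible factors pair an oxygen-labile alpha subunit with the stable partner ARNT. With oxygen present, prolyl hydroxylases mark the alpha subunit, VHL recognises the mark and the subunit is degraded; without it the pair binds DNA at a short core, A or G followed by CGTG, and raises the transcription of genes for glycolysis, pH control, survival and vessel growth. Cartilage has no blood vessels, and growth plate chondrocytes are known to depend on HIF1A and on glycolysis.

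The cells were ATDC5, a chondrogenic line derived from the mouse teratocarcinoma AT805, so that every value describes a single cell line in culture. Cells were plated as drops and given a medium with β-glycerophosphate and an ascorbate phosphate. Chromatin was fixed on days 0, 3 and 10 and precipitated for H3K4me3, the trimethylated histone H3 lysine 4 found at active and poised promoters, or for RUNX2, a transcription factor of osteoblasts and hypertrophic chondrocytes. Each of these 6 groups had 2 libraries. All groups were the same untransfected line, no oxygen treatment is named in the labels, and whether the day 0 cells were plated as drops or passaged is not stated. The labels name no separate cultures for the libraries of a group, and p values then measure a spread that may be technical.

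The 6 H3K4me3 lists held 13765 to 29022 peaks, and replicate 1 of day 0 and of day 10 had the fewest. The 2 RUNX2 lists of day 3 held 19319 and 16859 peaks, whereas those of days 0 and 10 held 97 to 108, none with a summit within 1 kb of an annotated start. Of 8 chondrocyte marker genes, 4 had an H3K4me3 peak in both libraries on day 0 and 8 on days 3 and 10, among them Sox9 and Col2a1. Of 5 hypertrophic chondrocyte marker genes, 1 had such a peak on day 0, 2 on day 3 and 3 on day 10. Col10a1 and Mmp13 had none in both libraries on any day. None of 3 muscle, 3 endothelial or 3 pluripotency marker genes had one in both libraries on any day, while 2 of 3 neuronal genes and the blood gene Ptprc did on day 3. The epithelial gene Epcam had one on days 3 and 10. The number of reads is unknown here, so a missing peak does not show a missing mark.

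Promoter sequences are shown for genes whose peaks appeared during differentiation (Adm, Car9, Slc16a3 and, by its own start, Aldoc) and for the glycolytic genes with the longest H3K4me3 on day 3 (Pkm, Tpi1 and Gapdh). Each line gives the 120 bases before the annotated start nearest the 5′ end of the gene, 5′ to 3′ on the gene's strand, from RefSeq (build GRCm38.p6). Capitals mark ACGTG or GCGTG on either strand, so the reverse complements CACGT and CACGC are also in capitals.
Adm: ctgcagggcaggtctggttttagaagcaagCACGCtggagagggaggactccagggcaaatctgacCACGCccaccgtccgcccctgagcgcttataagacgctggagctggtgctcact
Car9: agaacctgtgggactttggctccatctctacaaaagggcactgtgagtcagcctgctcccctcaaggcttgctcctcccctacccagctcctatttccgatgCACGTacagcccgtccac
Slc16a3: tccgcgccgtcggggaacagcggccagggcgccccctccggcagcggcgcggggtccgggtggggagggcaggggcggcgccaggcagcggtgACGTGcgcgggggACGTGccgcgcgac
Aldoc: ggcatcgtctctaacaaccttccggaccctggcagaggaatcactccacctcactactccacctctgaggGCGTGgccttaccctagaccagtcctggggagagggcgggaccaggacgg
Pkm: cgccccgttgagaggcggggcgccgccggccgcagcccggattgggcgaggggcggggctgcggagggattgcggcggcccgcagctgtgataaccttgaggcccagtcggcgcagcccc
Tpi1: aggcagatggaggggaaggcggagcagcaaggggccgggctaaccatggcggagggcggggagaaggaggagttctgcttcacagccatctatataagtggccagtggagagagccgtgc
Gapdh: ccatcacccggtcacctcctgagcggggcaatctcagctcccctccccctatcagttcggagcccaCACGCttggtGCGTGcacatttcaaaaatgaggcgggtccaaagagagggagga

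These stretches lie at chr7:110627537-110627656 (plus strand) for Adm, chr4:43506906-43507025 (plus) for Car9, chr11:120948947-120949066 (plus) for Slc16a3, chr11:78322953-78323072 (plus) for Aldoc, chr9:59656456-59656575 (plus) for Pkm, chr6:124814159-124814278 (minus) for Tpi1 and chr6:125165774-125165893 (minus) for Gapdh. Adm held GCGTG on the opposite strand at 90 and 54 bases before the start, Car9 held ACGTG on the opposite strand at 18 bases before it, and Slc16a3 held ACGTG at 27 and 14 bases before it. Tpi1 and Pkm held neither core in these bases, although a second annotated Pkm start has ACGTG on the opposite strand 75 bases before it.

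The table holds a 300-base window, from 250 bases before to 50 after a start, for 31 of the 35 genes; Ndrg1, Bnip3l, Epas1 and Slc2a3 have none in it. ACGTG on either strand was in a window of 21 of the 31 genes (67.7%), against 23.2% of all 17492 protein-coding genes with a window and 30.3% of the 9257 of them that carried H3K4me3 in all 6 lists. It was in 10 of 15 glycolytic genes and in 6 of 9 inducible hypoxia genes. GCGTG was in 64.5%, against 41.4% of all and 58.2% of the marked genes. Either core was in 28 of 31 (90.3%), against 52.3% of all and 69.8% of the marked genes. The RUNX cores TGTGGT or TGCGGT were in 8 of 31 (25.8%), against 24.4% of all. A sequence CACGTG counts as ACGTG on both strands and once as a gene. A gene with several annotated starts counted when any of its windows matched. Neither base composition nor the number of windows per gene was matched between these sets. The matches describe letters in a window and not binding.

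H3K4me3 was already present at most of these genes before differentiation. A peak in both libraries was called at 30 of 35 genes on day 0, where 52.2% of all protein-coding genes were called, at 34 on day 3 (61.6% of all) and at 34 on day 10 (56.8% of all). The 15 glycolytic enzyme genes and the 6 sensing and factor genes were called on each of the 3 days. Inducible hypoxia genes were called in 7, 10 and 11 of 11 cases on days 0, 3 and 10. The genes that lacked a call on some day were Adm, Car9, Bnip3, Bnip3l and Slc16a3, and 30 genes had a peak in all 6 lists (51.9% of all genes).

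**Figure D1:**
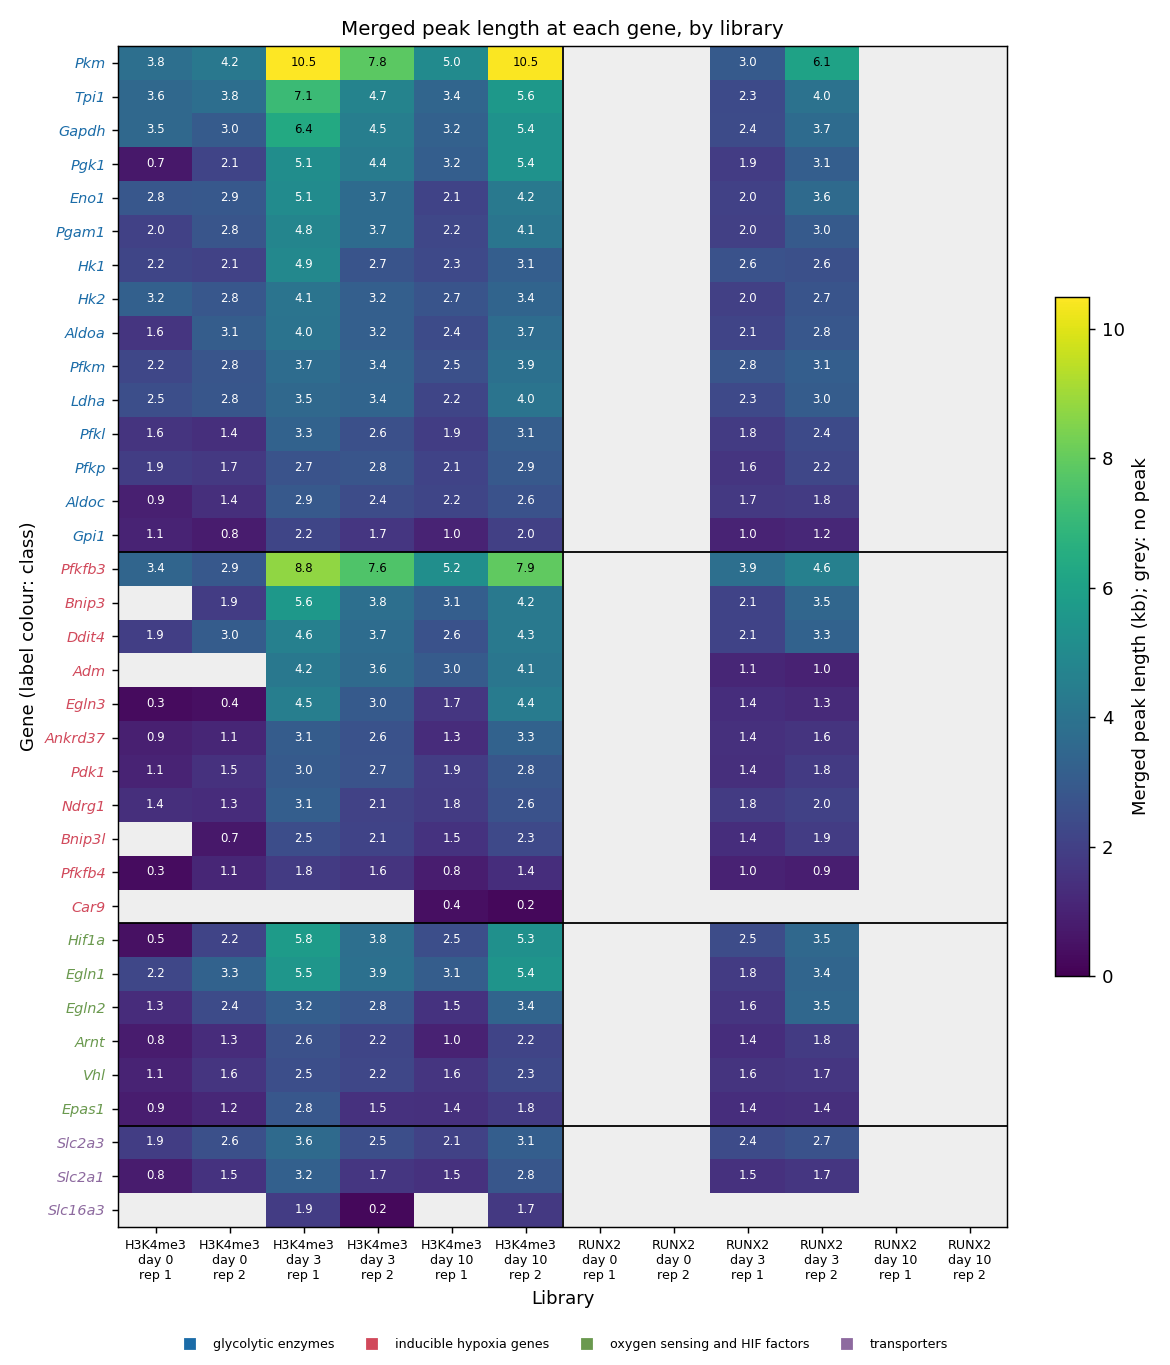
Merged peak length in kb (colour and printed value) at each of the 35 genes (rows, grouped by class and ordered by day 3 H3K4me3 length) in each of the 12 libraries (columns); grey cells had no peak. The 15 glycolytic rows are filled in all 6 H3K4me3 columns, Adm and Car9 are grey on day 0, and RUNX2 is filled on day 3 only.

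Adm encodes adrenomedullin, a secreted peptide that widens vessels. It had no H3K4me3 peak in either day 0 library, 4190 and 3627 bp of peaks on day 3, and 3011 and 4105 bp on day 10. Both later days were above day 0 without overlap, and a domain of this length appeared where none was called before. On day 3 the peaks covered 100% of the 2164 bp gene (chr7:110627657-110629820) in both libraries. Adm and Slc16a3 were the 2 of 35 genes that gained a peak from day 0 to day 3 (neither library before, both after), against 3.2% of all genes, and none lost one (0.00914% of all).

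Slc16a3 encodes MCT4, the exporter of lactate from glycolytic cells. It had no peak on day 0, 1853 and 240 bp on day 3, and 0 and 1749 bp on day 10. The lone peak of day 3 replicate 2 (chr11:120951668-120951907) had a −log10 q of 1.35, near the smallest in its list, and its summit lay 2629 bp inside the gene from the annotated start. The 2 day 3 libraries overlap the day 10 libraries, and the gain rests on that weak peak. Both −log10 q and fold enrichment come from the authors' peak calls and describe peaks within a list.

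Car9 encodes a carbonic anhydrase at the cell surface that is a classic target of HIF1A. It had no peak in any day 0 or day 3 library and 1 short peak in each day 10 library, at chr4:43507054-43507464 (411 bp, fold enrichment 4.58) and chr4:43507168-43507391 (224 bp, fold enrichment 3.62). Their summits lay 179 and 243 bp downstream of the annotated start, and the peaks overlap, so both libraries placed the mark at the same site. Car9 was the 1 gene of 35 to gain a peak from day 3 to day 10, against 0.0503% of all genes, and with Adm 1 of 2 from day 0 to day 10 (1.15% of all); none was lost in either interval (0.58% and 0.00457% of all). At a −log10 q of at least 5 the Car9 gain was no longer called.

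Bnip3 and Bnip3l encode mitochondrial proteins that direct mitophagy. On day 0 both had peaks in replicate 2 only, 1868 bp at Bnip3 and 659 bp at Bnip3l, a pattern found at 7.24% of all genes. On day 3 Bnip3 had 5605 and 3830 bp and on day 10 it had 3125 and 4225 bp, while Bnip3l had 2495 and 2115 bp and then 1540 and 2315 bp. At Bnip3 and Bnip3l every library of days 3 and 10 was above both of day 0. Day 0 replicate 1, which had no peak there, was the list with the fewest peaks, and the part of its depth was not tested.

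Peaks were longer on day 3 than on day 0 across most of the genes. The length of all H3K4me3 peaks at a gene was summed after merging. It was higher in both day 3 libraries than in both of day 0 at 32 of the 34 genes with any peak on these days. Among all 14526 protein-coding genes with such a peak the share was 74.7%. Length was lower at none of the 34 (0.062% of the 14526). Shares of all genes for length, here and below, count only genes with a peak in at least 1 compared list. The 2 exceptions were Hk2, a hexokinase gene, and Slc2a3, the gene of glucose transporter GLUT3. Among the 30 genes with a peak in all 4 lists the median ratio of day 3 to day 0 was 1.84, against 1.45 over 11412 such genes, and 26 of the 30 lay above 1.45. Each gene that did not overlap gave p = 0.333 in a two-sided exact permutation test, the smallest that 2 against 2 libraries allow, so no single gene could pass 0.05.

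The day 3 lists were also the longest of replicate 1, and the position and length of a called peak depend on depth. With each H3K4me3 list reduced to its 13765 strongest peaks, 29 genes were longer on day 3, against 72.9% of all.

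Glycolysis begins with hexokinase, which traps glucose in the cell. Hk2 had 3213 and 2833 bp on day 0 and 4051 and 3189 bp on day 3, with replicate 2 of day 3 just under replicate 1 of day 0. Its ratio of 1.20 was the smallest of the 30 genes. Hk1, the constitutive hexokinase, had a ratio of 1.77.

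Pkm encodes pyruvate kinase M, which makes pyruvate and ATP in the last step, and it had the longest H3K4me3 of the glycolytic genes. Its peaks summed to 3825 and 4189 bp on day 0, 10497 and 7834 bp on day 3, and 5008 and 10457 bp on day 10. Day 3 stood above day 0 in both libraries at 2.29-fold (4007 ± 257 against 9166 ± 1883 bp, SD, n = 2), and day 10 was split between its libraries. Part of this length is a peak at the 3′ end of Pkm that lies nearest the start of the neighbouring gene Gramd2; within 1 kb of the Pkm starts the sums were 2953 and 3337 bp on day 0 and 8093 and 6132 bp on day 3.

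Tpi1, which encodes triose phosphate isomerase, had 3558 and 3798 bp on day 0, 7149 and 4684 bp on day 3 and 3406 and 5608 bp on day 10. A second peak lies nearest the start of the adjacent Spsb2, and in day 3 replicate 1 a single peak spans both starts. Gapdh, encoding the dehydrogenase that follows it, had 3528 and 3026 bp on day 0, 6373 and 4486 bp on day 3 and 3242 and 5352 bp on day 10. On day 3 its peaks covered 100% and 71.6% of the 4616 bp gene, against 57.6% and 62.7% on day 0.

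Pgk1, for phosphoglycerate kinase, had the largest ratio of the glycolytic genes, from 666 and 2138 bp on day 0 to 5134 and 4362 bp on day 3 (3.39-fold). Day 10 stayed above day 0 in both libraries, at 3158 and 5360 bp. The smallest day 3 lengths of the class were at Gpi1, Aldoc and Pfkp. Gpi1, the phosphoglucose isomerase gene, had 1063 and 803 bp on day 0, 2209 and 1661 bp on day 3 and 1031 and 1969 bp on day 10. Pfkp, a phosphofructokinase gene, had 1913 and 1726 bp, then 2702 and 2773 bp, then 2109 and 2924 bp. At both, day 3 was above day 0 in each library. Ldha, which encodes the lactate dehydrogenase subunit that regenerates NAD, had 2507 and 2812 bp on day 0 and 3548 and 3373 bp on day 3. The ratios of the 15 genes ran from 1.20 at Hk2 to 3.39 at Pgk1, with 12 of 15 above the 1.45 of all genes and Hk2, Ldha and Pfkm below it.

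Aldoc, encoding the aldolase C isozyme, differed from its class when only its own start was read. Over its extended span it had 929 and 1403 bp on day 0, 2935 and 2449 bp on day 3 and 2214 and 2650 bp on day 10. The day 0 peaks lie at the 3′ end of the gene, nearest the start of the neighbour Pigs. Within 1 kb of an Aldoc start there was no peak in either day 0 library, 1468 and 1100 bp on day 3 and 1054 and 1352 bp on day 10. Counted this way, a measure added after the data had been seen, Adm and Aldoc gained a peak from day 0 to day 3 among the 31 genes with an annotated start (2.22% of all such genes). The start windows called 26, 29 and 30 of 31 genes on days 0, 3 and 10, against 50.5%, 57.5% and 54.4% of all. In the same windows Car9 gained a peak from day 3 to day 10 (0.0858% of all), Car9, Adm and Aldoc gained one from day 0 to day 10 (0.978% of all), and none of the 31 lost one from day 0 to day 3 (0.00572% of all) or from day 3 to day 10 (0.372% of all).

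**Figure D2:**
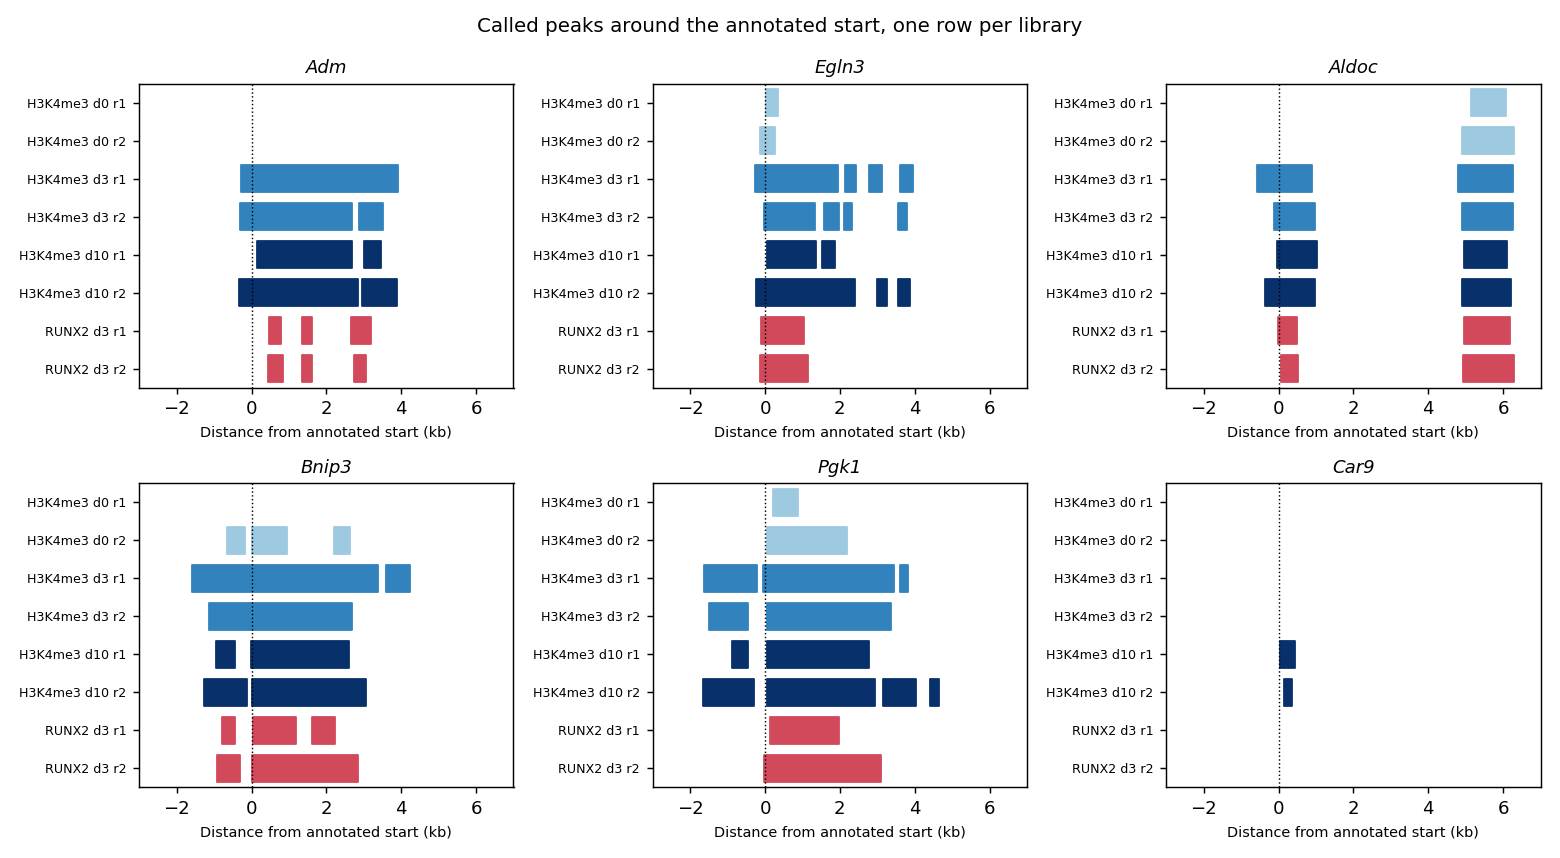
Called peaks (bars) from 3 kb before to 7 kb after the annotated start of 6 genes, with 1 row per library for H3K4me3 (light to dark blue, days 0, 3 and 10) and for day 3 RUNX2 (red); the dotted line is the start and transcription runs to the right. Adm is empty on day 0, Egln3 widens from 303 and 414 bp, Aldoc has day 0 peaks only at its far end, and Car9 has peaks on day 10 only.

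Egln3 encodes prolyl hydroxylase PHD3, an oxygen sensor that hypoxia itself induces. Its H3K4me3 was 303 and 414 bp on day 0, 4480 and 2967 bp on day 3 and 1661 and 4378 bp on day 10. Both later days lay above day 0 without overlap. Its day 0 peak in replicate 1, at 303 bp, was near the 295 bp of the shortest peak in that list. The ratio of day 3 to day 0 was 10.4 (359 ± 78.5 against 3724 ± 1070 bp, SD, n = 2). That was rank 1 of the 11412 genes with a peak in all 4 lists, which leave out genes without a day 0 peak.

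The day 3 length of Egln3 was made of 6 and 5 separate peaks. The one at the start measured 2231 and 1371 bp, with its summit 197 and 269 bp inside the gene, and the others included 1 in each library with its summit 11308 and 11548 bp into the gene and a fold enrichment of 12.4 and 3.96. Within 1 kb of the start the ratio was 5.02, rank 10 of 8829. With each list reduced to its strongest 13765 peaks, Egln3 lacked a peak in at least 1 of the 4 lists and had no ratio.

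Pfkfb3 encodes a kinase whose sugar phosphate product activates phosphofructokinase, and it had the longest peaks of the inducible genes. They summed to 3405 and 2886 bp on day 0, 8777 and 7601 bp on day 3 and 5198 and 7918 bp on day 10, above day 0 in every later library. Its relative Pfkfb4 was among the shortest, with 339 and 1120 bp on day 0, 1841 and 1579 bp on day 3 and 842 and 1361 bp on day 10. Pfkfb4 and Arnt were the 2 genes shorter in both day 10 libraries than in both of day 3, against 20.0% of all genes. The count rested on single libraries: it was 28 without day 3 replicate 2 and 34 without day 10 replicate 2. The share of all genes was not computed for either setting, so whether these counts are unusual is not known.

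Ddit4, which encodes REDD1, a brake on mTORC1, had 1947 and 3050 bp on day 0, 4567 and 3726 bp on day 3 and 2627 and 4256 bp on day 10. Ankrd37, a small HIF1A target, had a ratio of 2.75, and Ndrg1, a gene of stress and differentiation, one of 1.89. Pdk1, whose kinase restrains the oxidation of pyruvate in mitochondria, had 1054 and 1516 bp on day 0 and 2969 and 2679 bp on day 3. The 7 inducible genes with a peak in all 4 lists had ratios of 1.66 to 10.4 with a median of 2.34, and 7 of 7 lay above 1.45. The 4 without a ratio were Adm, Car9, Bnip3 and Bnip3l, so the median leaves out the genes that began without a called peak.

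Hif1a, the alpha subunit gene, had 460 and 2170 bp on day 0, 5759 and 3848 bp on day 3 and 2502 and 5270 bp on day 10. Its ratio of 3.65 was the largest of the sensing class, with day 0 libraries that lay far apart. The peaks fell at 2 sites, near the first base of the gene span and around the annotated start further in. Epas1, encoding HIF2A, had a ratio of 2.12 and Arnt one of 2.26. Egln1, for the main prolyl hydroxylase PHD2, had 1.69, Egln2 had 1.62 and Vhl 1.78. All 6 lay above the 1.45 of all genes.

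Of the transporters, Slc2a1, the gene of GLUT1, had 810 and 1520 bp on day 0 and 3206 and 1652 bp on day 3, a ratio of 2.08 in which day 3 replicate 2 was close to day 0 replicate 2. Slc2a3 overlapped between the days with 1892 and 2551 bp and then 3641 and 2537 bp.

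**Figure D3:**
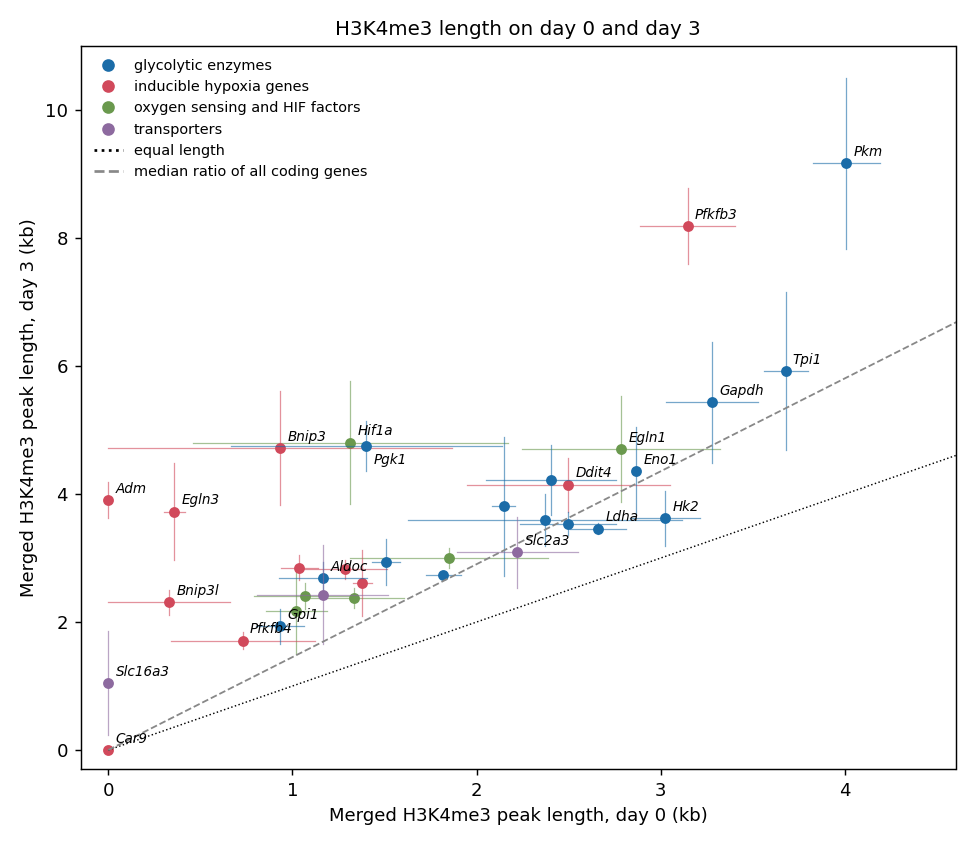
Mean merged H3K4me3 length at each gene on day 0 (x axis, kb) and day 3 (y axis, kb), with lines from the lower to the higher of the 2 libraries on each axis and colours for the 4 classes. Most points lie above the dashed line, the median ratio of 1.45 of all genes, and Adm, Slc16a3, Bnip3l and Egln3 stand at the left, with day 0 means of 0, 0, 330 and 359 bp.

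Fewer genes stood above their day 0 length on day 10. H3K4me3 was longer in both day 10 libraries than in both of day 0 at 18 of 35 genes, against 21.2% of all, and shorter at none (0.371% of all). The 18 were 9 of 11 inducible genes, 6 of 15 glycolytic genes, 3 of 6 sensing genes and 0 of 3 transporters. Ankrd37, Pdk1 and Ndrg1 were among the 9, and Ddit4 and Pfkfb4 were the inducible genes that overlapped. Without day 10 replicate 1, a short list, 35 of 35 genes were longer than on day 0, but the share of all genes was not computed for this setting. With both short lists left out, so that single libraries were compared, 35 genes were longer, against 91.8% of all. Against day 3, Car9 alone was longer in both day 10 libraries (0.462% of all genes).

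Within each library the glycolytic genes carried longer H3K4me3 than the inducible genes, and the gap was widest on day 0. Median lengths on day 0 were 2211 bp for glycolytic and 339 bp for inducible genes in replicate 1, and 2757 and 1139 bp in replicate 2. On day 3 they were 4051 and 3125 bp, and 3361 and 2679 bp. On day 10 they were 2323 and 1844 bp, and 3879 and 3318 bp. All genes with a peak had medians of 1287 and 1554 bp on day 0 and of 2141 and 1809 bp on day 3, so the inducible class lay below the typical marked gene on day 0 and above it on day 3. Genes without a peak were counted as 0 bp in the class medians and left out of the median of all genes.

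The ratio of the glycolytic to the inducible median was 4.47 ± 2.90 on day 0, 1.28 ± 0.0295 on day 3 and 1.21 ± 0.0641 on day 10 (SD, n = 2 libraries). The 2 day 0 libraries, at 6.52 and 2.42, both lay above the 4 later ones. The day 0 value of 6.52 came from the shorter list, which had no peak at 4 of 11 inducible genes. With 1 kb around annotated starts the ratios were 4.03, 1.20 and 1.17. With Hk2, Aldoc and the 3 transporters counted as inducible genes, the day 0 ratio was 2.28, against 1.40 on day 3 and 1.31 on day 10.

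**Figure D4:**
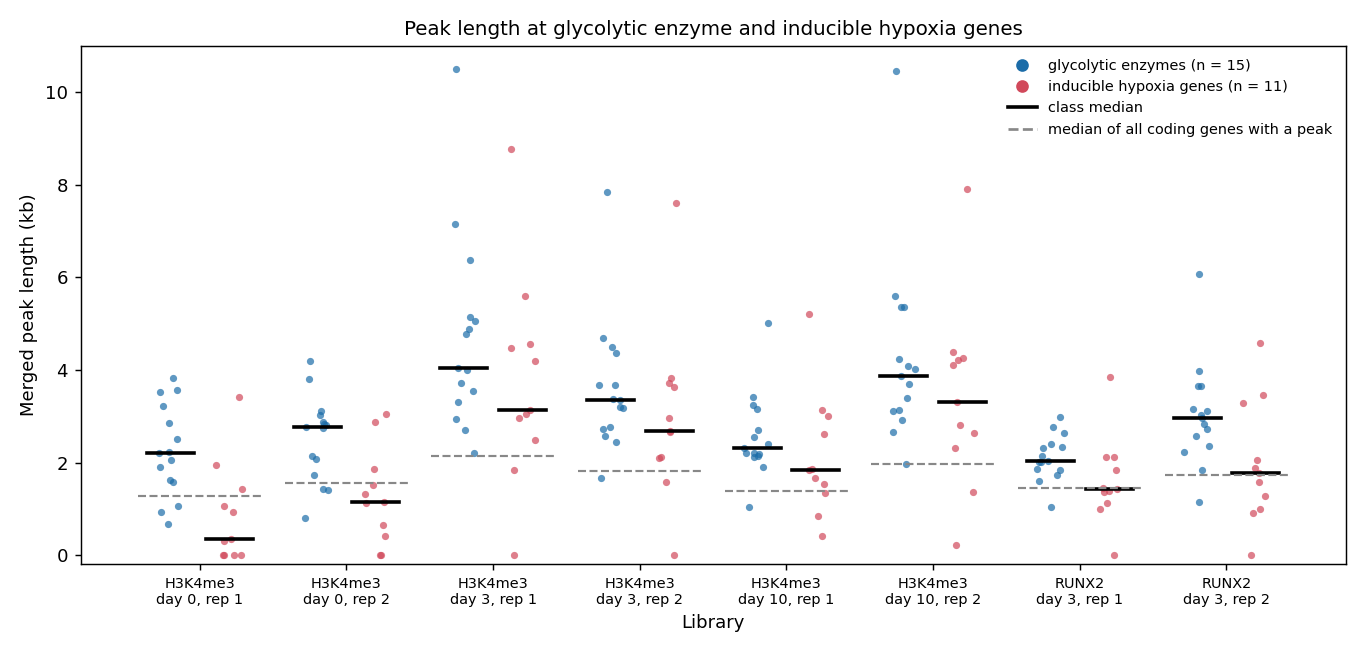
Merged peak length in kb (y axis) of each glycolytic enzyme gene (blue) and inducible hypoxia gene (red) in the 6 H3K4me3 libraries and the 2 day 3 RUNX2 libraries (x axis); black bars are class medians and dashed lines the median of all protein-coding genes with a peak. The red medians lie below the dashed line on day 0 (339 and 1139 bp) and above it in the later H3K4me3 libraries, and the blue medians lie above it throughout.

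Peak strength was compared by rank within a list. The strongest peak of the median glycolytic gene stood at percentile 80.0 and 77.1 of its list by −log10 q on day 3, and that of the median inducible gene at 75.6 and 72.5, beside 76.9 and 74.7 for all marked genes. In the same order the percentiles were 75.5, 59.0 and 62.1 in replicate 1 and 73.4, 58.7 and 69.4 in replicate 2 of day 0. On day 10 they were 73.4, 44.4 and 63.7 in replicate 1 and 74.5, 67.1 and 76.5 in replicate 2. Genes without a peak in a list have no rank, so the inducible genes behind these medians differ by day. They were 7 and 9 of 11 in the day 0 libraries, 10 in each of day 3 and 11 in each of day 10. On day 3 both classes were longer than the median marked gene, while the ranks of their strongest peaks lay within 5 points of its rank.

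RUNX2 peaks were found at these genes on day 3 alone. Both libraries had a peak at 33 of 35 genes (58.4% of all genes), and 0 of 35 had one in both libraries on day 0 (0.0274% of all) or day 10 (0.0183% of all). The call covered 15 of 15 glycolytic, 10 of 11 inducible, 6 of 6 sensing and 2 of 3 transporter genes, with Car9 and Slc16a3 uncalled. Of the 34 genes with H3K4me3 in both day 3 libraries, 33 had RUNX2, beside 94.2% of all genes so marked, a share near the background. No RUNX2 peak touched Slc16a3 or Car9 in any list. On days 0 and 10, absence of binding and absence of precipitated signal in the whole list cannot be told apart.

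RUNX2 length was also greater at glycolytic than at inducible genes, with medians of 2032 and 1424 bp in replicate 1 and 2969 and 1771 bp in replicate 2. The ratio was 1.55 ± 0.176 (SD, n = 2). All genes with a RUNX2 peak had medians of 1440 and 1721 bp, close to the inducible class. The strongest RUNX2 peak of the median glycolytic gene ranked at percentile 71.6 and 79.9 of its list, that of the median inducible gene at 57.3 and 46.0, and that of all genes with a RUNX2 peak at 68.6 and 65.9. Pkm had the longest glycolytic RUNX2 sum over its extended span, 2981 and 6068 bp, and Pfkfb3 the longest inducible one, 3853 and 4584 bp. The strongest RUNX2 summit of Pkm lay nearer the start of another gene in both libraries. Within 1 kb of the Pkm starts the sums were 1908 and 4046 bp, and in replicate 1 that of Pfkm was longer, at 2770 bp.

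Adm held 3 short RUNX2 peaks in each library, summing to 1123 and 987 bp, of which 100% and 85.1% lay inside H3K4me3 peaks. They fell at the same 3 sites in both libraries, 581, 1525 and 2871 bp from the start in replicate 1 and 580, 1521 and 2876 bp in replicate 2. These peaks were weak: the strongest stood at percentile 21.7 and 5.24 of its list by −log10 q (10.1 and 5.12). At Egln3 the RUNX2 peak at the start was 1138 and 1270 bp with a summit 285 and 286 bp inside the gene. Aldoc had 501 and 464 bp of RUNX2 within 1 kb of its start, where 29 of 31 genes were called (55.6% of all).

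The strongest RUNX2 summit lay a median of 320 and 119 bp from the nearest H3K4me3 summit at the 33 genes, beside 217 and 205 bp over all genes with both. The median share of RUNX2 peak length inside H3K4me3 peaks was 100% and 97.7%, beside 100% and 97.2%. Of 29 genes with an annotated start, 27 had their strongest RUNX2 summit downstream of it in each library (93.1%), at medians of 320 and 330 bp. Of all genes with a start and a RUNX2 peak, 81.4% and 81.2% did, with a median of 271 bp in both libraries.

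Other genes of the pathway were read in the same way. Of 21 further hypoxia-induced genes, 20 had H3K4me3 in both libraries on each day and RUNX2 on day 3, and Epo, the erythropoietin gene of kidney and liver, had neither. Over all genes the shares were 51.9% for H3K4me3 in all 6 lists and 58.4% for RUNX2 in both day 3 libraries. RUNX2 was at 94.2% of all genes with H3K4me3 in both day 3 libraries. On day 3, 17 of these 20 were longer than on day 0 without overlap, beside 74.7% of all genes, with a median ratio of 1.68 beside 1.45, and Lox, Cited2 and Stc2 overlapped. Bhlhe40, a transcriptional repressor gene, had 1900 and 3537 bp on day 0 and 9505 and 7645 bp on day 3 (3.15-fold). P4ha2, for a collagen prolyl hydroxylase, had a ratio of 3.11, and Plod2, for a collagen lysyl hydroxylase, had 1663 and 2829 bp and then 8650 and 5150 bp (3.07-fold). Vegfa, the vessel growth factor gene, had 4044 and 4650 bp on day 0 and 7655 and 5664 bp on day 3.

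Of 16 genes of pyruvate oxidation and the pentose phosphate pathway, 15 had H3K4me3 in both libraries on each day and RUNX2 on day 3. Over all genes these shares were 51.9% and 58.4%, with RUNX2 at 94.2% of those marked by H3K4me3 on day 3. Ldhd had H3K4me3 in 1 library only. Length was greater on day 3 without overlap at 12 of 16, near the 74.7% of all genes, with a median ratio of 1.37 that lay below the 1.45 of all. Pdk4, whose kinase restrains pyruvate oxidation as that of Pdk1 does, overlapped between the days with 617 and 2236 bp and then 1358 and 918 bp. The Pdk1 lengths did not overlap.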

How the data were processed

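Peak lists of 12 libraries were analysed (H3K4me3 and RUNX2, days 0, 3 and 10, 2 libraries each); the 2 input libraries were not analysed here. Per the submitters' processing notes, 75 bp reads were handled with FastQC, Trim Galore, HISAT2 2.2.0 and MACS2. Not given in the sources used here are settings, duplicate removal, use of input as control and further versions. The deposited narrowPeak lists give, by that format's columns, peak positions, the score (10 times −log10 q), the fold enrichment as a linear ratio over local background, and the −log10 of p and q; each list is of 1 library. The smallest −log10 q of the H3K4me3 and RUNX2 lists was 1.30 to 1.63. The notes name GRCm39, but the positions matched RefSeq starts of GRCm38: 34.2 to 65.8% of H3K4me3 summits lay within 1 kb of a start, and 2.59 to 3.21% after a shift of 20 kb. They were read as GRCm38 and are counted from 1.

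A gene was called when both libraries of a day had a peak overlapping its span, extended by 1 kb, by at least 1 bp. Lengths are unclipped merged peak lengths, and the day 3 to day 0 ratio is that of the 2 library means. Days were compared by a two-sided exact permutation test of 2 against 2 libraries (Python 3.11.15, NumPy 2.4.6, pandas 2.3.3), scripts being tested on simulated data. Alternatives were gene ends, a 5 kb extension, summits in the window, −log10 q of at least 5, equal numbers of top peaks, the longest peak, other classes, the replicate block and leaving out each library; start windows and leaving out both short lists were added after the data had been seen. Named with values were genes whose call varied between days or that lacked RUNX2 on day 3, and the 3 longest and 3 shortest of the 2 compared classes on day 3; Egln3, Pgk1, Hk2, Ldha, Aldoc, Hif1a and other genes outside this rule were chosen after their values had been seen. The members, classes and lists were chosen with earlier results of these data known. The result of 1 gene of the isozyme list is not reported here.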

Additional observations from a re-analysis of the deposited data

How the results depend on the processing

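Calls of members in both libraries, by day and antibody, and the count longer on day 3 than on day 0 stayed within 1.5 times of the reported count in every alternative run. The 2 genes gaining a peak from day 0 to day 3 became 1 with gene ends, 1 at a −log10 q of at least 5, 1 with equal top peaks, and 2 to 4 when 1 library was left out (4 without day 0 replicate 2, with Bnip3 and Bnip3l). The 2 gains from day 0 to day 10 became 1 at the stricter q, 1 with equal top peaks and 2 to 4 with a library left out; the 1 gain from day 3 to day 10 became 0 at the stricter q, and the 0 losses 0 to 1. Longer on day 10 than on day 3 went from 1 to 1 to 7 with a library left out and 7 without both short lists, and shorter from 2 to 4 with the longest peak and 2 to 34 with a library left out (28 without day 3 replicate 2, 34 without day 10 replicate 2). Longer on day 10 than on day 0 went from 18 to 18 to 35 (28 without day 0 replicate 2, 35 without day 10 replicate 1) and 35 without both short lists, and shorter from 0 to 1 with the longest peak and 0 to 4. The class ratio on day 3 of 1.28 was 1.21 with gene ends, 1.49 with 5 kb, 1.24 with summits, 1.34 with equal top peaks, 1.20 with start windows, 1.40 with other classes and 1.19 with the longest peak; on day 10 the 1.21 was 1.33 with 5 kb and 1.31 with other classes. On day 0 the ratio of 4.47 was 2.42 to 6.52 with a library left out and 2.28 with other classes. The cause of these shifts was not tested, and shares of all genes were not computed for counts with 1 library left out. Libraries share only a replicate number; paired by it, the replicate block gave a smallest p of 0.5 in place of 0.333 for each pair of days. The unknown depth limits what an absent peak shows.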

Other observations

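Genes of isozymes restricted to some tissues were read in the same way. Of 17 such genes and relatives, H3K4me3 was called in both libraries at 7 on day 0 (52.2% of all genes). It was called at 7 on day 10 (56.8% of all), and RUNX2 at 7 on day 3 (58.4% of all). Each was a smaller share than that of all genes. Hk3, Pgk2, Pgam2, Pklr, Ldhc and Slc2a2 had no peak in any list. Ldhb, whose lactate dehydrogenase subunit favours the use of lactate, had 350 and 624 bp on day 0 and 1333 and 1137 bp on day 3, a ratio of 2.54. Eno2, the neuronal enolase gene, had 933 and 1805 bp on day 0 and 5986 and 2045 bp on day 3. Within 1 kb of an annotated Eno2 start the lengths were 933 and 1422 bp and then 1639 and 1272 bp, which overlapped between the days. Those of Ldhb were the same in either window. Over the extended spans, Eno2 (2.93) and Ldhb had the largest ratios of the 7 genes of this list with a peak in all 4 lists. The third largest was 1.40, and the median of the 7 was 1.25, below the 1.45 of all genes. The span of a neighbouring gene can lend its peak to these genes, which was not tested for each.

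Hif3a, encoding a HIF alpha subunit that can oppose the others, had 214 and 376 bp on day 3 and none on the other days. The day 3 lists held 28653 and 26781 peaks, and the part of list length in these short peaks was not tested.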
